A study of Mus musculus with 10 samples.

Results

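The 46 genes described here work in DNA replication or in mitosis, 18 in the first role and 28 in the second, and they were chosen by name among 27670 genes on the arrays. All 46 were found, through 72 probes, with Cdk1 listed in the scanner files as Cdc2a and Cdc45 as Cdc45l. Gene expression was measured in whole lungs of female BALB/c mice, an inbred strain, which were 6 to 8 weeks old when received. The smoke group of 5 mice breathed the mainstream smoke of 12 unfiltered 3R4F reference cigarettes in each of 2 whole-body exposures of 50 minutes a day, 5 days a week, for 8 weeks, and the 5 control mice breathed room air over the same time. Each lung was hybridised to its own Agilent array of long oligonucleotide probes, and the level of a gene is given as the log2 ratio of its red over its green signal. Red was taken as the lung RNA, since lung genes were far brighter in it (median log2 ratio over the 10 arrays of 5.80 for the surfactant gene Sftpc and 6.65 for the club cell gene Scgb1a1), and green as a reference that holds male RNA, since the Y-linked Ddx3y, Eif2s3y and Kdm5d were well above background on 10 arrays in green and on 2, 0 and 1 in red. The sample labels name only 1 dye, while the file headers give a 2-colour protocol, and the reference RNA was not identified. The table of processed values deposited with the arrays holds, under each label, the values of the same-numbered array of the other group. Every direction below therefore rests on the labels of the scanner files. Of 5 genes known as targets of the receptors that smoke activates, chosen with earlier results known, 3 were higher in the arrays that those files label smoke, in log2 Cyp1b1 by 3.06 ± 0.12 (adjusted p = 1.08e-07), Nqo1 by 2.08 ± 0.09 (adjusted p = 2.49e-07) and Ahrr by 1.96 ± 0.11 (adjusted p = 1.76e-06). The other 2 did not pass, Cyp1a1 with a difference of 1.09 ± 0.48 (adjusted p = 0.254) and Tiparp with -0.06 ± 0.08 (adjusted p = 0.838). That of Cyp1a1 was 0.62 to 1.36 with single arrays left out and 0.35 to 1.38 over all 22 settings. In bulk lung RNA, more cells of a dividing type and more of these RNAs in each cell cannot be told apart.

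Cells copy their DNA in S phase and separate the copies in mitosis. Before S phase the Mcm2-7 helicase is loaded at origins by factors such as Cdc6, and with Cdc45 it opens the DNA for the polymerases, while ribonucleotide reductase, thymidylate synthase and thymidine kinase supply the nucleotides. Later, cyclins A and B with the kinase Cdk1 drive entry into mitosis, motors and microtubule proteins build the spindle, the checkpoint holds the chromosomes until they are attached, and the anaphase-promoting complex ends the division. Most of these genes are transcribed in cycling cells and shut off in resting ones, so that an adult lung, in which few cells divide, holds little of their RNA.

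In the smoke-exposed lungs, 33 of the 46 genes were higher than with room air in limma's test at an adjusted p under 0.05, where 4.96% of all 27669 genes tested were, and 0 were lower, where 3.27% of all genes were (40 of the 46 had an unadjusted p under 0.05, in either direction, against 20.0% of all genes). In this fit the largest differences were those of Mki67 at 2.77-fold, Birc5 at 2.43-fold, Cenpe at 2.26-fold and Ccnb1 at 2.15-fold. There 6 genes, all of them mitotic, exceeded 2-fold. That number depended on the settings. It was 11 with an offset of 0, by the scanner's own ratio and in the red channel alone at its 75th percentile. Each time the replication gene Rrm2 was among them. It was 5 in the red channel after quantile scaling, 4 after median centring and 2 after scaling between arrays. With the mean over all probes of a gene it was also 2, and with single arrays left out 4 to 7. By the scanner's own ratio and in the red channel at its 75th percentile, Ccnb1 had the largest log2 difference, at 1.64 and 1.60. Of the replication genes 11 of 18 were higher, with a median log2 difference of 0.29 over the 18, and of the mitosis genes 22 of 28, with a median of 0.56 over the 28, beside a median over all genes of -0.00. The difference between the medians of both roles was not tested. In 32 of the 46 genes the lowest smoke array was higher than the highest room air array, against 4.62% of all genes.

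Every array lay on a slide with an array of the other group and of the same replicate number, and each slide gave its own estimate. The mitosis genes had median differences of 0.61, 0.56, 0.73, 0.51 and 0.46 on slides 1 to 5. Those of the replication genes were 0.35, 0.23, 0.46, 0.27 and 0.20. On each of the 5 slides the mitosis median lay above the replication median and both lay above the median of all genes, which was between -0.01 and 0.00. All 28 mitosis genes and 14 of the 18 replication genes were higher in the smoke array on every slide that measured them. The share of all genes that were so was not counted. The smoke array always took the same place on its slide, so that place and group cannot be told apart. With the slide as a block, 38 of the 46 genes were higher, 12 of the replication and 26 of the mitosis genes, against 7.51% of all genes.

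**Figure D1:**
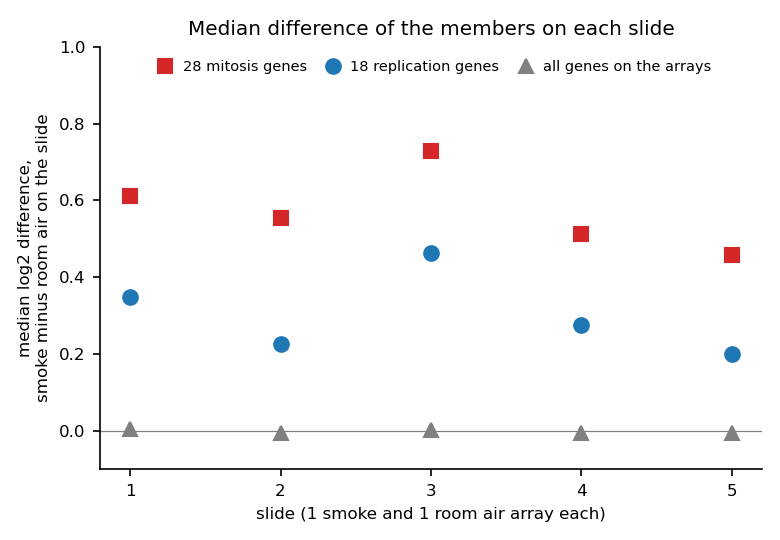
The vertical axis gives the median log2 difference between the smoke and the room air array of a slide, and the horizontal axis the 5 slides. Squares are the mitosis genes (0.46 to 0.73), circles the replication genes (0.20 to 0.46) and triangles all genes on the arrays, and on every slide they stand in that order from top to bottom.

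The count depended on how the arrays were scaled. With the ratios of each array centred on their median in place of loess, 13 of the 46 genes were higher, against 2.01% of all genes, and with loess followed by scaling between arrays 16 were higher, against 4.55%. The genes that passed under both scalings were Mki67, Top2a, Birc5, Cenpe, Ccna2, Ccnb1, Ccnb2, Kif20a, Nusap1, Rrm2, Tk1 and Ccne1. The 3 genes with a negative difference after median centring were Mcm4, Pola1 and E2f1, none of them past the threshold under any setting. Among the 33, the difference shrank by over 1.5 times in Mcm5, Mcm7, Cdc6 and Pole after median centring, and after scaling in Mcm2, Mcm7, Cdc6, Pole, Tyms, Aurka, Cenpf and Kif4. The methods name Wilcoxon tests, and by an exact two-sided one 0 genes passed, 36 of the 46 had an unadjusted p under 0.05, against 14.6% of all genes, and the smallest adjusted p that 5 against 5 arrays gave was 0.115.

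**Figure D2:**
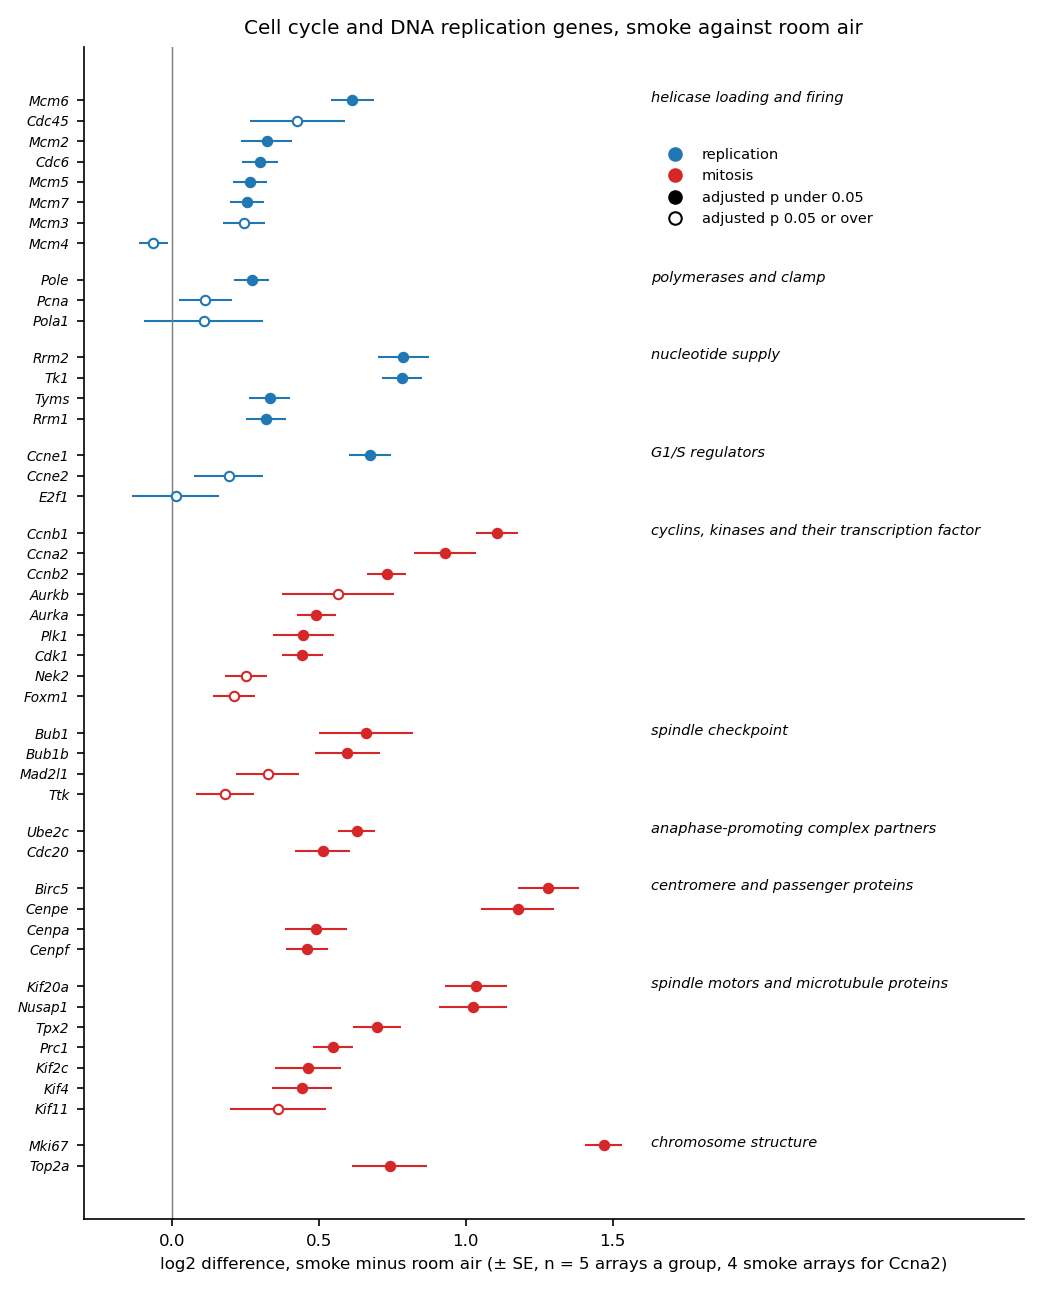
Each point is a gene at its log2 difference, smoke minus room air, with the SE as a bar, grouped by role and ordered within it. Filled points had an adjusted p under 0.05 in limma's test, and differences run from -0.06 in Mcm4 to 1.47 in Mki67.

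What an array reports of a gene is what binds a single strand of 60 bases, and the probes of a gene did not always give the same value. Shown here are the probes of Mki67, which had the largest difference of the 46, and those of Ccnb1 and Cdk1, which differed among themselves. Those of Rrm2 and Mcm6, with the largest differences of the replication genes and of the helicase ring, are also shown. These ranks hold in the fit used throughout, and in some other settings Ccnb1 was above Mki67 and Tk1 above Rrm2. The probes are printed with their positions on the mm7 build that the scanner files use, for which no gene annotation was used here. All are given 5′ to 3′ as the scanner files list them, and the position listed for Rrm2 covers 55 bases of genome.
Mki67 first probe, chr7:132094802-132094861, minus strand: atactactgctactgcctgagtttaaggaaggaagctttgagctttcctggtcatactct
Mki67 second probe, chr7:132099223-132099282, minus strand: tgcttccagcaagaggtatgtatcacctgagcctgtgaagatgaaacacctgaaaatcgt
Ccnb1 probe 1, chr13:97885282-97885341, minus strand: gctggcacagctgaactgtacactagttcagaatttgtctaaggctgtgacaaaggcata
Ccnb1 probe 2, chr13:97884622-97884681, minus strand: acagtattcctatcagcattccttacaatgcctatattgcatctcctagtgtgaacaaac
Ccnb1 probe 3, chr13:97885016-97885075, minus strand: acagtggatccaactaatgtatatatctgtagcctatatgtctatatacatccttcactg
Cdk1 first probe, chr10:68946079-68948488, minus strand: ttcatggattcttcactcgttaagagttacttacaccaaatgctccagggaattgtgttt
Cdk1 second probe, chr10:68940820-68940879, minus strand: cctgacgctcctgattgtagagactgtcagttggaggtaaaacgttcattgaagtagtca
Rrm2 probe, chr12:22550253-22550307, plus strand: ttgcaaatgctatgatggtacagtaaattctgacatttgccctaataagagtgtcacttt
Mcm6 probe, chr1:128211735-128211794, minus strand: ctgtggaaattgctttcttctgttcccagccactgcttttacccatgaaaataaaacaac

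The first probe of each gene is the one with the brightest red signal, and it represents the gene throughout. The log2 difference was 1.47 ± 0.06 (SE) at the first probe of Mki67 and 1.12 ± 0.07 at the second, both past the threshold. In Ccnb1 it was 1.11, 0.64 and 0.60 at its probes in the order printed, and the last did not pass (adjusted p = 0.0947, and 0.00158 with the slide as a block). The red signal stood at 2.82, 1.57 and 1.37 times the background there (medians over 10 arrays), and in the red channel alone they gave 1.60, 1.34 and 1.72, all past the threshold, so that the order of the Ccnb1 probes changed with the scale. The first Cdk1 probe spans 2410 bases of genome and so crosses an intron, and it gave 0.44. The second Cdk1 probe was well above background on 1 array of each group and gave -0.04 (adjusted p = 0.834). Over all 46 genes, 21 had several probes, with 26 probes beyond the brightest. Of these, 11 were well above background on all 10 arrays, all 11 had a positive difference and 5 passed the test. The other 15 were below that level on some arrays or on all, and 0 of them passed, with differences between -0.04 and 0.43. With the slide as a block 12 of the 26 passed, 3 of them among those 15, and in the red channel alone 8 of the 26 passed. With the mean over all probes of a gene, 32 of the 46 genes were higher, against 4.85% of all genes, Pole and Rrm1 no longer passing and Nek2 being added. The difference shrank by over 1.5 times in 8 of the 33, to 0.62 in Cenpe, 0.51 in Nusap1, 0.38 in Top2a, 0.31 in Cenpf, 0.24 in Cenpa, 0.20 in Cdk1, 0.15 in Pole and 0.14 in Rrm1.

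Replication genes are classical targets of the E2F family, whereas many mitotic genes carry CCAAT boxes, bound by NF-Y, and a cell cycle genes homology region (CHR), bound by the DREAM and MuvB complexes. Promoters of 250 bases before to 50 after the start were taken from RefSeq (build GRCm38.p6) for the 38 members that the table held, with 40 promoters in all, since Mcm7 and Prc1 have a pair each. The members with no entry were Aurkb, Ccna2, Ccne2, Foxm1, Kif20a, Mcm4, Pole and Tpx2. Both strands were searched for TTTGAA (CHR), CCAAT, and TTTCCCGC, TTTGGCGC, TTTCGCGC or TTTGCCGC (E2F). A pair of mitotic and a pair of replication promoters are shown, with every match in capitals, on whichever strand it was found.
Mki67, chr7:135716330-135716629, minus strand: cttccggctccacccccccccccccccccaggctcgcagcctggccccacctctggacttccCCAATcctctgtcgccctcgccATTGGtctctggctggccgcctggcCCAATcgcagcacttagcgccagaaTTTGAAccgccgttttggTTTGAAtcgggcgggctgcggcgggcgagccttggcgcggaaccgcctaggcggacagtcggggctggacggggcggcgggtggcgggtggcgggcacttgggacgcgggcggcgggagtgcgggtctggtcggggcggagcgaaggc
Cdc20, chr4:118437294-118437593, minus strand: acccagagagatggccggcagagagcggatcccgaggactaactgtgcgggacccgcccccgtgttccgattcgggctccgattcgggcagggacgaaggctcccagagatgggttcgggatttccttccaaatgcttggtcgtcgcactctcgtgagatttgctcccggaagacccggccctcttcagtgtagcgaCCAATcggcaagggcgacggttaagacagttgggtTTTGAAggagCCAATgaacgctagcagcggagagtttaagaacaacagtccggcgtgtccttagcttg
Mcm5, chr8:75109259-75109558, plus strand: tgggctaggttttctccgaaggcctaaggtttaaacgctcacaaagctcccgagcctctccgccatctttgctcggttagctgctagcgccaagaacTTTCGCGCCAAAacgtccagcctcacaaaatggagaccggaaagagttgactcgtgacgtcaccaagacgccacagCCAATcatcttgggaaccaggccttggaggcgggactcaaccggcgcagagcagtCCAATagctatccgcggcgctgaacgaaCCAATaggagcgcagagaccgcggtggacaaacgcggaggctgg
Mcm6, chr1:128359656-128359955, minus strand: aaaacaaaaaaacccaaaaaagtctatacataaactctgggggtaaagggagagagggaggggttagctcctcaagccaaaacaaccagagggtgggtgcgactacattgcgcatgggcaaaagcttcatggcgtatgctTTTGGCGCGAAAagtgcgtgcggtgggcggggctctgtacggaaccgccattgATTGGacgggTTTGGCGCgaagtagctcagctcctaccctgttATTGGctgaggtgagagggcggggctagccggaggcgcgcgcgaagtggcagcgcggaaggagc

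The Mki67 promoter held 2 CHR and 3 CCAAT matches and that of Cdc20 1 CHR and 2 CCAAT matches, and neither held an E2F match. The promoter of Mcm5 held 2 E2F and 3 CCAAT matches and that of Mcm6 3 E2F and 2 CCAAT matches, with 0 CHR in both. In each of the latter a pair of E2F matches on opposite strands share 4 bases. Over all members with an entry, TTTGAA stood in 17 of 24 mitosis promoters (70.8%) and 2 of 16 replication promoters (12.5%), those of Mcm2 and Cdc45, and in 17.9% of all 32851 promoters of the same length. CCAAT stood in 20 mitosis promoters (83.3%) and 11 replication promoters (68.8%), against 37.4% of all. Both together stood in 66.7% of mitosis, 12.5% of replication and 6.95% of all promoters. An E2F match stood in 6 replication promoters (37.5%) and in 1 mitosis promoter (4.17%), that of Cdk1, against 2.26% of all.

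**Figure D3:**
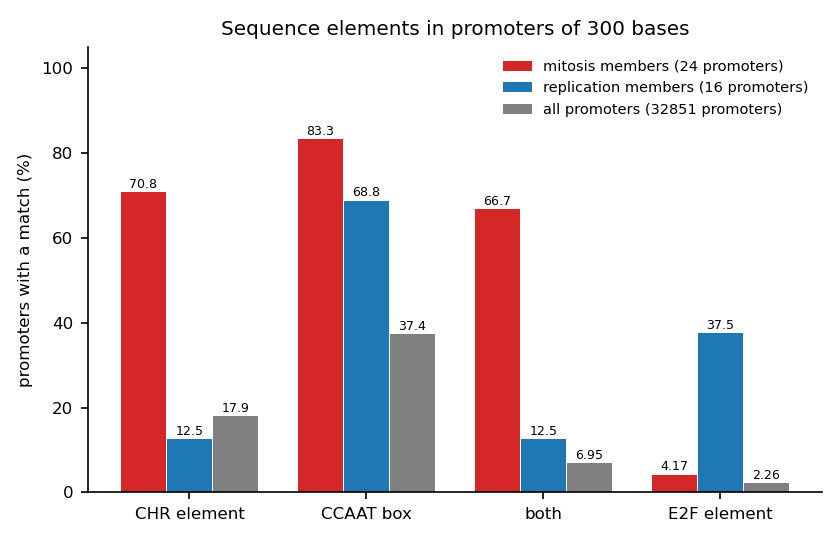
Bars give the percent of 300-base promoters with at least 1 match on either strand, for 24 promoters of mitosis genes, 16 of replication genes and all 32851. The CHR bar is tallest in the mitosis genes (70.8%) and the E2F bar in the replication genes (37.5%).

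The log2 differences of the members were set beside these elements. The 7 mitosis genes with an entry and no TTTGAA in it were Birc5, Bub1, Ccnb1, Cenpe, Mad2l1, Nek2 and Nusap1, and their median log2 difference was 1.03, against 0.49 in the 16 with a match. Of the replication genes, the 6 with an E2F match had a median of 0.26 and the 9 without one 0.33. These medians were not tested, and a match or its absence in this window is a matter of letters only.

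Of the genes that load and start the helicase, 5 of 8 were higher with smoke. Mcm6, a subunit of the helicase ring and the one shown above, had log2 ratios of -4.25, -4.11, -4.33, -3.94 and -4.02 with room air and -3.58, -3.50, -3.53, -3.43 and -3.56 with smoke (replicates 1 to 5 of each group, here and below). No smoke array reached down to the room air arrays, and the difference was 0.61 ± 0.07 (SE), 1.53-fold, with an adjusted p of 0.000467. Mcm2, another subunit of the ring, had -2.89, -2.55, -2.96, -2.73 and -2.53 with room air and -2.48, -2.32, -2.45, -2.45 and -2.34 with smoke. The room air arrays of Mcm2 were spread out, from room air replicate 3 to room air replicate 5, all below the smoke arrays, and the difference of 0.32 ± 0.09 (SE), 1.25-fold, with an adjusted p of 0.0469, was close to the threshold. Mcm5 had ratios of -1.85, -1.83, -2.02, -1.92 and -1.84 with room air and -1.71, -1.65, -1.49, -1.72 and -1.57 with smoke. Its groups did not overlap, with a difference of 0.26 ± 0.06 (SE), 1.2-fold, with an adjusted p of 0.0183. Mcm7 had ratios of -2.49, -2.32, -2.39, -2.42 and -2.34 with room air and -2.24, -2.10, -2.11, -2.0 and -2.23 with smoke. These did not overlap either, with a difference of 0.26 ± 0.06 (SE), 1.19-fold, with an adjusted p of 0.0199. Cdc6, which loads the ring onto origins, had ratios of -2.32, -2.20, -2.35, -2.18 and -2.14 with room air and -2.01, -1.88, -1.82, -2.06 and -1.93 with smoke, and here too the smoke arrays were all above the others. The difference in Cdc6 was 0.30 ± 0.06 (SE), 1.23-fold, with an adjusted p of 0.0115.

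The remaining helicase genes did not pass. Mcm3 had a difference of 0.24 ± 0.07 (adjusted p = 0.0678, and 0.0487 by the scanner's own ratio, with 0.15 after median centring and 0.13 after scaling), and Cdc45, which joins the ring when origins fire, 0.43 ± 0.16 (adjusted p = 0.175), with 0.21 to 0.67 over the other settings, passing only with the slide as a block (adjusted p = 0.0345). Mcm4 stood apart from the other subunits, with log2 ratios of -1.90, -1.88, -1.96, -1.84 and -1.88 with room air and -1.90, -2.06, -2.02, -1.89 and -1.90 with smoke. Its smoke array was below the room air array on all 5 slides, yet the groups overlapped, and the difference of -0.06 ± 0.05 (95% interval -0.17 to 0.05) did not pass (adjusted p = 0.614). The second probes of Mcm3 and Mcm4 gave 0.20 and -0.03, the latter on a spot that was well above background on no array.

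Among the polymerases and the clamp, 1 of 3 was higher. Pole, the catalytic subunit of the leading strand polymerase, had log2 ratios of -3.08, -2.95, -3.12, -3.17 and -3.06 with room air and -2.73, -2.86, -2.68, -2.84 and -2.90 with smoke. Every smoke array was above every room air array in Pole, with a difference of 0.27 ± 0.06 (SE), 1.21-fold, with an adjusted p of 0.0166. A second Pole probe, well above background on no array in either channel, gave 0.02, and the mean of both did not pass (adjusted p = 0.0912). Pcna, the sliding clamp that also serves in DNA repair, had a difference of 0.11 ± 0.09 (95% interval -0.09 to 0.31, adjusted p = 0.63), and 0.04 to 0.17 over the other settings. Pola1, of the polymerase that lays down primers, had 0.11 ± 0.20 (adjusted p = 0.882), with overlapping groups and an SD of 0.43 among the room air arrays.

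All 4 genes of nucleotide supply were higher with smoke, each by its brightest probe. Rrm2, the small subunit of ribonucleotide reductase that is made mainly in S phase, had log2 ratios of -3.80, -3.77, -4.14, -3.93 and -3.82 with room air and -3.18, -3.06, -3.07, -3.31 and -2.91 with smoke. The lowest smoke array of Rrm2, smoke replicate 4, was well above the highest of room air, room air replicate 2, and the difference was 0.79 ± 0.09 (SE), 1.73-fold, with an adjusted p of 0.000273. Tk1, the thymidine kinase of the salvage pathway, had ratios of -3.0, -2.94, -3.12, -2.76 and -3.12 with room air and -2.20, -2.25, -2.16, -2.16 and -2.26 with smoke. Its smoke arrays were tightly grouped and all above those of room air, with a difference of 0.78 ± 0.07 (SE), 1.72-fold, with an adjusted p of 6.17e-05. Rrm1, the large subunit of the reductase, had ratios of -2.24, -2.16, -2.33, -2.0 and -2.18 with room air and -1.89, -2.0, -1.86, -1.85 and -1.72 with smoke. Smoke replicate 2 was nearly level with room air replicate 4, the others were further apart, and the difference was 0.32 ± 0.07 (SE), 1.25-fold, with an adjusted p of 0.0155. A second Rrm1 probe, also well above background on no array in either channel, gave -0.03, and the mean of both did not pass either (adjusted p = 0.121). Tyms, which makes thymidylate, had ratios of -2.96, -2.85, -2.79, -2.73 and -2.53 with room air and -2.48, -2.43, -2.42, -2.39 and -2.48 with smoke. Here room air arrays varied more than smoke arrays, which were all higher, and the difference was 0.33 ± 0.07 (SE), 1.26-fold, with an adjusted p of 0.016. Of its other probes, a bright one gave 0.31 and passed and a dim one, well above background on 7 of 10 arrays, gave 0.02.

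Of the regulators of entry into S phase, 1 of 3 was higher. Ccne1, a cyclin that activates Cdk2, had log2 ratios of -2.22, -2.17, -2.15, -2.28 and -2.07 with room air and -1.51, -1.41, -1.45, -1.75 and -1.38 with smoke. All smoke arrays were above all room air arrays, with a difference of 0.67 ± 0.07 (SE), 1.6-fold, with an adjusted p of 0.000228. A second and dimmer Ccne1 probe gave 0.33 and did not pass (adjusted p = 0.0745), but passed with the slide as a block (adjusted p = 0.0276) and in the red channel alone, at 0.89 (adjusted p = 0.0193). Ccne2, its relative, was well above background on 2 of 5 room air and 4 of 5 smoke arrays and had a difference of 0.19 ± 0.12 (adjusted p = 0.468), which was 0.09 in the red channel after quantile scaling, 0.51 with an offset of 0 and 0.62 by the scanner's own ratio, past the threshold in none. E2f1, the transcription factor that replication genes answer to, had 0.01 ± 0.15 (95% interval -0.31 to 0.34, adjusted p = 0.985).

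Of the mitotic cyclins, kinases and their transcription factor, 6 of 9 were higher with smoke. Ccnb1, the B-type cyclin of Cdk1, had log2 ratios of -4.71, -4.46, -4.70, -4.55 and -4.35 with room air and -3.50, -3.47, -3.47, -3.41 and -3.39 with smoke. Its arrays fell into well separated groups, and the difference was 1.11 ± 0.07 (SE), 2.15-fold, with an adjusted p of 5.39e-06. Ccnb2, the other B-type cyclin, had ratios of -2.84, -2.94, -2.98, -2.76 and -2.91 with room air and -2.23, -2.25, -2.05, -2.0 and -2.24 with smoke, with the groups again apart. The difference in Ccnb2 was 0.73 ± 0.07 (SE), 1.66-fold, with an adjusted p of 6.79e-05. Ccna2, the cyclin of S phase and early mitosis, had ratios of -4.15, -4.08, -4.20, -3.74 and -4.04 with room air (replicates 1 to 5) and -3.18, -3.19, -3.21 and -2.86 with smoke (replicates 1 to 4). The spot of smoke replicate 5 was left out for its outlier flag, smoke replicate 4 was the highest of the others, and the difference over 9 arrays was 0.93 ± 0.10 (SE), 1.9-fold, with an adjusted p of 0.000462. Cdk1 had ratios of -3.28, -3.26, -3.23, -3.10 and -3.22 with room air and -2.99, -2.82, -2.67, -2.62 and -2.78 with smoke. The groups of Cdk1 did not overlap, and the difference was 0.44 ± 0.07 (SE), 1.36-fold, with an adjusted p of 0.00264.

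Aurka, the kinase of the spindle poles, had log2 ratios of -3.73, -3.56, -3.75, -3.55 and -3.71 with room air and -3.30, -3.15, -3.01, -3.13 and -3.25 with smoke. The smoke arrays were all higher, with a difference of 0.49 ± 0.07 (SE), 1.41-fold, with an adjusted p of 0.000992. Plk1, a kinase of many mitotic steps, had ratios of -2.39, -2.18, -2.35, -1.82 and -2.28 with room air and -1.89, -1.82, -1.63, -1.63 and -1.82 with smoke. Its groups overlapped, room air replicate 4 lying above smoke replicate 1, and the difference was 0.45 ± 0.10 (SE), 1.36-fold, with an adjusted p of 0.0243. The kinase of the passenger complex, Aurkb, which was well above background on 4 of 5 room air and all 5 smoke arrays, had 0.56 ± 0.19 (adjusted p = 0.119), and Nek2, a centrosome kinase, 0.25 ± 0.07 (adjusted p = 0.0563). In Nek2 it was 0.15 after median centring and 0.13 after scaling. Both passed with the slide as a block (adjusted p = 0.00302 and 0.0126), and Aurkb also passed with an offset of 0, at 1.30, by the scanner's own ratio, at 1.59, and in the red channel alone, at 1.56 (75th percentile) and 0.46 (quantile). Foxm1, the transcription factor that activates many of these genes, had 0.21 ± 0.07 and did not pass (adjusted p = 0.121, and 0.0553 with the block), with 0.10 after median centring and 0.09 after scaling.

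Of the spindle checkpoint genes, 2 of 4 were higher. Bub1b, which with Mad2l1 holds back the anaphase-promoting complex, had log2 ratios of -3.43, -3.16, -3.47, -2.92 and -3.05 with room air and -2.84, -2.57, -2.64, -2.47 and -2.52 with smoke. Every smoke array lay above room air replicate 4, the highest with room air, and the difference was 0.60 ± 0.11 (SE), 1.51-fold, with an adjusted p of 0.00723. Bub1, the checkpoint kinase at the kinetochore, had ratios of -4.35, -3.96, -4.33, -3.94 and -3.60 with room air and -3.58, -3.13, -3.67, -3.44 and -3.07 with smoke. In Bub1 the groups overlapped, since room air replicate 5 was above smoke replicate 3, but on each slide smoke was higher, with a difference of 0.66 ± 0.16 (SE), 1.58-fold, with an adjusted p of 0.0296. Its difference was larger with an offset of 0, at 1.11, by the scanner's own ratio, at 1.22, and in the red channel alone, at 1.17. Mad2l1 had 0.33 ± 0.11 with no overlap between the groups (adjusted p = 0.109, and 0.0137 with the slide as a block), and 0.22 after median centring and 0.18 after scaling. The kinase Ttk was well above background on 2 of 5 arrays in each group, and its difference was 0.18 ± 0.10 (adjusted p = 0.405), or 0.07 to 0.51 over the other settings, past the threshold in none.

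Both partners of the anaphase-promoting complex were higher. Cdc20, the activator that the checkpoint blocks, had log2 ratios of -3.56, -3.42, -3.55, -3.12 and -3.30 with room air and -3.04, -2.86, -2.77, -2.74 and -2.98 with smoke. Smoke and room air arrays stood apart, with a difference of 0.51 ± 0.09 (SE), 1.43-fold, with an adjusted p of 0.00599. Ube2c, the ubiquitin-conjugating enzyme of the complex, had ratios of -3.92, -4.06, -3.84, -3.77 and -3.83 with room air and -3.33, -3.30, -3.14, -3.21 and -3.30 with smoke. These did not overlap either, with a difference of 0.63 ± 0.06 (SE), 1.55-fold, with an adjusted p of 0.000124.

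All 4 genes of the centromere and the passenger complex were higher with smoke. Birc5, which encodes survivin, a passenger protein, had log2 ratios of -4.47, -4.16, -4.25, -4.0 and -3.94 with room air and -2.98, -3.07, -2.69, -2.82 and -2.85 with smoke. No smoke array came near the highest room air array, room air replicate 5. The difference of 1.28 ± 0.10 (SE), 2.43-fold, with an adjusted p of 3.26e-05, was the second largest of the 46 in the fit used throughout. With an offset of 0, Ccnb1 was above Birc5, at 1.53 against 1.35. Cenpe, the motor of the kinetochore, had ratios of -4.90, -4.49, -4.85, -4.25 and -4.57 with room air and -3.58, -3.46, -3.45, -3.16 and -3.52 with smoke. Its groups were also apart, with a difference of 1.18 ± 0.12 (SE), 2.26-fold, with an adjusted p of 0.000198. The other Cenpe probes, well above background on 6 and 1 of 10 arrays, gave 0.43 and 0.25, neither past the threshold. The former passed with the slide as a block (adjusted p = 0.0085) and in the red channel alone, at 1.46 (adjusted p = 0.0103). So did the latter (adjusted p = 0.00675 with the block, and 0.0144 in red, at 1.65), though its spot stood at only 1.06 times the background. Cenpf, a large kinetochore protein, had ratios of -3.49, -3.33, -3.53, -3.65 and -3.34 with room air and -3.06, -2.91, -2.92, -3.13 and -3.03 with smoke. All its smoke arrays were higher, with a difference of 0.46 ± 0.07 (SE), 1.37-fold, with an adjusted p of 0.00245, and a second probe, well above background on 1 of 10 arrays, gave 0.15 and did not pass (adjusted p = 0.613). Cenpa, the histone that marks the centromere, had ratios of -2.92, -2.54, -2.84, -2.68 and -2.41 with room air and -2.30, -2.16, -2.08, -2.39 and -2.0 with smoke. The groups were close but did not overlap, and the difference was 0.49 ± 0.11 (SE), 1.4-fold, with an adjusted p of 0.0158, while a second probe that was well above background on no array gave -0.00. The green reference signal of Cenpa differed by -0.20, the largest such value of the 46, with the red signal alone giving 0.47 (adjusted p = 0.257) at its 75th percentile and 0.25 after quantile scaling.

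Of the spindle motors and microtubule proteins, 6 of 7 were higher. Kif20a, a motor of the central spindle, had log2 ratios of -4.82, -4.42, -4.71, -4.33 and -4.44 with room air and -3.68, -3.48, -3.51, -3.27 and -3.60 with smoke. All smoke arrays were above all room air arrays, and the difference was 1.04 ± 0.10 (SE), 2.05-fold, with an adjusted p of 0.000145. Nusap1, which bundles microtubules near the chromosomes, had ratios of -4.11, -3.66, -3.81, -3.72 and -3.40 with room air and -2.76, -2.75, -2.90, -2.59 and -2.56 with smoke. Its smoke arrays were likewise all higher, with a difference of 1.03 ± 0.12 (SE), 2.04-fold, with an adjusted p of 0.00031, while a second probe that was well above background on no array gave -0.00. Tpx2, the activator of Aurka on the spindle, had ratios of -4.12, -3.95, -4.14, -4.02 and -3.83 with room air and -3.42, -3.39, -3.08, -3.41 and -3.26 with smoke, with no overlap. The difference in Tpx2 was 0.70 ± 0.08 (SE), 1.62-fold, with an adjusted p of 0.00035. Prc1, which crosslinks the central spindle, had ratios of -3.97, -3.74, -3.75, -3.71 and -3.67 with room air and -3.32, -3.25, -3.07, -3.18 and -3.28 with smoke. Room air replicate 1 was the lowest by a margin, and the difference was 0.55 ± 0.07 (SE), 1.46-fold, with an adjusted p of 0.000559.

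Kif2c, which takes microtubules apart at the kinetochore, had log2 ratios of -3.09, -2.81, -3.27, -2.81 and -2.75 with room air and -2.62, -2.35, -2.68, -2.49 and -2.27 with smoke. The lowest smoke array, smoke replicate 3, was only just above room air replicate 5, and the difference was 0.46 ± 0.11 (SE), 1.38-fold, with an adjusted p of 0.0291. With an offset of 0 it was 0.74, by the scanner's own ratio 0.76 and in the red channel after quantile scaling 0.30. Kif4, a motor that binds chromosome arms, had ratios of -3.66, -3.34, -3.58, -3.13 and -3.31 with room air and -3.06, -2.94, -2.96, -2.77 and -3.08 with smoke. In Kif4 the groups did not overlap, with a difference of 0.44 ± 0.10 (SE), 1.36-fold, with an adjusted p of 0.022. Kif11, the motor that pushes the spindle poles apart, had 0.36 ± 0.16 and did not pass (adjusted p = 0.274), but did with the slide as a block (adjusted p = 0.0232) and with an offset of 0, at 0.76 (adjusted p = 0.0438). Its brightest probe stood at 1.35 times the background, and the difference was 0.23 after scaling and 0.17 with the mean over all probes.

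Both genes of chromosome structure were higher. Mki67, the proliferation antigen Ki-67, which coats mitotic chromosomes, had log2 ratios of -4.48, -4.39, -4.54, -4.53 and -4.28 with room air and -3.01, -3.04, -2.85, -3.02 and -2.95 with smoke. The arrays of each group were close to one another and the groups far apart, with a difference of 1.47 ± 0.06 (SE), 2.77-fold, with an adjusted p of 1.72e-07. Top2a, the topoisomerase that untangles sister chromatids, had ratios of -4.51, -4.14, -4.64, -4.02 and -3.95 with room air and -3.62, -3.48, -3.63, -3.39 and -3.43 with smoke. Room air arrays of Top2a varied more than smoke arrays, room air replicate 5 being the highest, and all lay below the smoke arrays, with a difference of 0.74 ± 0.13 (SE), 1.67-fold, with an adjusted p of 0.00452. Its other probes, well above background on 8 and 0 of 10 arrays, gave 0.35 and 0.05, neither past the threshold, though the former passed with the block (adjusted p = 0.0116).

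**Figure D4:**
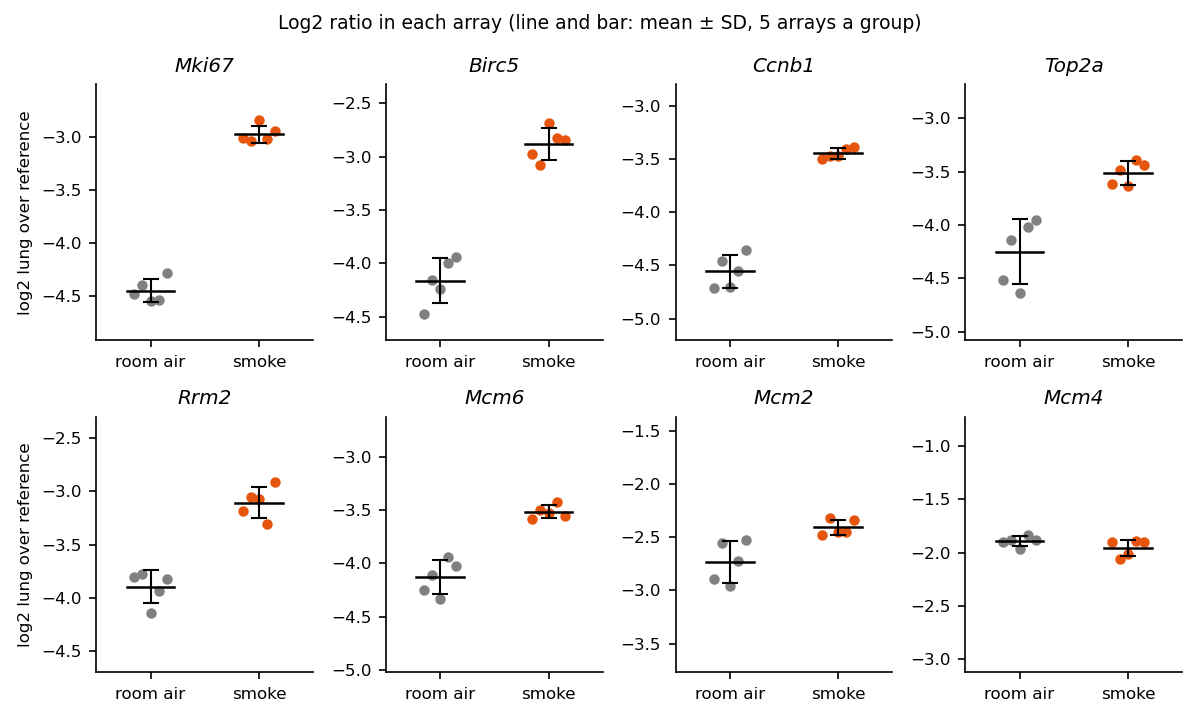
Points are the log2 ratios of lung over reference signal in the 5 room air (grey) and 5 smoke (orange) arrays, lines and bars are the mean ± SD, and each panel spans the same range of log2 units. In the first 7 genes every smoke array is above every room air array, by a wide gap in Mki67 and a narrow one in Mcm2, and in Mcm4 the groups overlap.

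Of the 33 genes past the threshold, 27 also passed with each of the 10 arrays left out in turn. The exceptions were Mcm2, which passed only without room air replicate 2 or 5 (adjusted p up to 0.114 without each other array), and Mcm5, which did not pass without smoke replicate 5 (adjusted p = 0.0522). Plk1 did not pass without room air replicate 2, 3 or 5 or smoke replicate 3 or 4 (adjusted p up to 0.0642), and Bub1 without room air replicate 2 or 3 or smoke replicate 2, 4 or 5 (up to 0.0784). Kif2c did not pass without room air replicate 3 or smoke replicate 2, 4 or 5 (up to 0.078), and Kif4 without room air replicate 3 or smoke replicate 4 (up to 0.0571). Among the others, Mcm3 and Nek2 passed without smoke replicate 2 (adjusted p = 0.0466 and 0.0149), Foxm1 without room air replicate 4 (0.0357) and Aurkb without room air replicate 5 (0.0371).

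The ratio has a lung and a reference side. All 46 genes were brighter in the reference than in the lung on every array, so that their log2 ratios were negative throughout. In the green channel alone, 0 of the 46 genes differed between the groups at an adjusted p under 0.05 by limma. Only 5 of all 27669 genes did, so that this 0 says little about the members. The green differences of the 46 lay between -0.20 and 0.05. In the red channel alone, scaled to its 75th percentile, 44 of the 46 had a positive difference, the exceptions being Mcm4 and E2f1, with medians of 0.32 over the replication and 0.73 over the mitosis genes, and 22 passed, all of them higher, against 3.16% of all genes. The 12 of the 33 that no longer passed there were Cdc6, Cdk1, Cenpa, Kif2c, Kif4, Mcm2, Mcm5, Mcm7, Plk1, Pole, Rrm1 and Tyms, and Aurkb was added. Of the 46, 43 were well above background in red on all 10 arrays, the others being Ccne2, Aurkb and Ttk, and 0 spots were saturated.

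Longer lists of genes of the same processes had smaller median differences. Of 41 further replication genes, 11 were higher and 0 lower (against 4.96% and 3.27% of all genes), with a median log2 difference of 0.17. The largest were Gins1, of the helicase complex, at 0.73 ± 0.07 (adjusted p = 9.59e-05), Cdt1, which loads the helicase with Cdc6, at 0.70 ± 0.08 (adjusted p = 0.000255), Uhrf1, which copies DNA methylation, at 0.62 ± 0.08 (adjusted p = 0.00095), and Gmnn, the inhibitor of Cdt1, at 0.59 ± 0.07 (adjusted p = 0.000402). Of 69 further mitosis genes, 32 were higher and 0 lower (against the same shares), with a median of 0.39. They were led by Ncapg, of condensin, at 1.21 ± 0.13 (adjusted p = 0.000225), Cdca5, which protects cohesion, at 1.15 ± 0.09 (adjusted p = 3.22e-05), Sgo1, shugoshin, at 1.01 ± 0.11 (adjusted p = 0.000266), and Cks2, a partner of Cdk1, at 0.88 ± 0.07 (adjusted p = 2.71e-05). The difference of Cdca5 ran from 0.72 to 1.29 over 22 other settings. With the slide as a block, 53 of the 69 were higher and 2 lower, and 15 of the 41 higher and 1 lower, against 7.51% and 6.27% of all genes. In the red channel alone, at its 75th percentile, the list medians were 0.18 over the 41 and 0.66 over the 69.

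Other lists held genes that restrain or start the cycle in G1. Of 7 inhibitors of cyclin-dependent kinases, 0 were higher and 1 was lower (against 4.96% and 3.27% of all genes), Cdkn2b at -0.38 ± 0.10 (adjusted p = 0.0476). With the block Cdkn1c was lower as well, at -0.39 (adjusted p = 0.0431, and 0.131 without the block), where 6.27% of all genes were lower. Of 19 G1 cyclins, kinases and Rb and E2f family genes, 4 were higher (against 4.96% of all genes) and 0 lower, with a median of 0.09. Those 4 were E2f8 at 0.57 ± 0.13 (adjusted p = 0.0179) and E2f7 at 0.52 ± 0.11 (adjusted p = 0.0189), both repressors of E2F targets, E2f2 at 0.34 ± 0.09 (adjusted p = 0.042), and Tfdp1, the partner of E2f proteins, at 0.19 ± 0.05 (adjusted p = 0.0357). With the block 6 were higher (against 7.51% of all genes), Rb1 at 0.22 (adjusted p = 0.0174) and Lin9 at 0.31 (adjusted p = 0.00983) being added. Several of these calls were near the threshold, and of 22 other settings Tfdp1 no longer passed in 16 (difference down to 0.08), Cdkn2b in 15, E2f2 in 13, E2f7 in 7 and E2f8 in 2 (adjusted p up to 0.877, 0.25, 0.628, 0.186 and 0.115). The 22 include the exact Wilcoxon test, by which 0 genes passed and whose smallest adjusted p was 0.115. The difference of E2f8 ran from 0.36 with the mean over its probes to 1.42 in the red channel alone. That of E2f7 ran from 0.30 to 0.73 over the same settings.

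Most markers of macrophages were also higher in the smoke group. Of 11 macrophage markers measured, 8 were higher with smoke and 0 lower (against 4.96% and 3.27% of all genes), with a median of 1.14, led by Marco at 2.60 ± 0.41 (adjusted p = 0.00248), Chil3 at 2.12 ± 0.21 (adjusted p = 0.000138), Cd68 at 2.06 ± 0.06 (adjusted p = 6.92e-09) and Adgre1 at 1.39 ± 0.07 (adjusted p = 8.4e-07). Over 22 other settings the difference of Adgre1 ran from 0.84 to 1.45. The mean log2 ratio of the 11 was 2.37, 2.20, 2.23, 2.21 and 2.08 with room air and 3.31, 3.33, 3.41, 3.29 and 3.28 with smoke, without overlap. Their summed red signal, relative to each array's 75th percentile, was 657, 833, 618, 673 and 843 with room air and 888, 1268, 957, 695 and 1271 with smoke. Lyz2 was the brightest of them, with a difference of 0.18 ± 0.17 (adjusted p = 0.705). On each slide the sum was higher in the smoke array, but smoke replicate 4 lay below room air replicates 2 and 5. The part of macrophages, or of any other cell type, in the result on the cell cycle genes was not tested.

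The lists of other cell types gave fewer calls, to be read beside the 4.96% of all genes that were higher and the 3.27% that were lower. Of 7 neutrophil markers 2 were higher, Mmp8 at 1.16 ± 0.26 (adjusted p = 0.021) and Camp at 0.60 ± 0.12 (adjusted p = 0.00881), with a median of 0.22 and S100a9 the brightest, and their summed red signal was highest in room air replicate 1, at 183 against 27.8 to 86.8 in the other arrays. The spots of Mmp8 and Camp, and of Il7r below, were well above background in green on 0 of 10 arrays, so that the sizes of their ratios are uncertain, and in the red channel alone Camp had 1.80 and did not pass (adjusted p = 0.0756), while Mmp8 had 1.62 and Il7r 1.19 (adjusted p = 0.0181 and 0.000545). Of 8 T cell and natural killer cell markers 1 was higher, Il7r at 0.86 ± 0.14 (adjusted p = 0.00268, list median 0.06), and of 8 B cell and plasma cell markers 0 passed (median 0.10). The epithelial lists gave 0 of 7 alveolar type 2, 0 of 4 club and 0 of 5 ciliated cell markers (medians 0.08, -0.02 and 0.13), and 1 of 6 alveolar type 1 markers was lower, Cav1, at -0.64 ± 0.09 (adjusted p = 0.0011, list median -0.11). The summed red signal of the type 1 markers, with Cav1 the brightest, was 323 to 399 with room air and 244 to 299 with smoke, without overlap. Of 6 endothelial markers Pecam1 was lower, at -0.41 ± 0.11 (adjusted p = 0.0488, list median -0.15). The summed red signal of the list, with Cldn5 the brightest, was 145 to 189 with room air and 99.6 to 121 with smoke. In the red channel alone, at its 75th percentile, the list median was -0.56 for endothelial and -0.36 for type 1 markers. In the green channel alone it was -0.44 and -0.18, with 0 calls in both lists, where only 5 of all 27669 genes were called. Pecam1 no longer passed in 15 of 22 other settings (adjusted p up to 0.31), with -0.28 after scaling and -0.78 in the red channel alone. Of 6 fibroblast and smooth muscle markers 3 were lower, Pdgfra at -0.49 ± 0.04 (adjusted p = 5.95e-05), Dcn at -0.49 ± 0.10 (adjusted p = 0.0107) and Acta2 at -0.45 ± 0.09 (adjusted p = 0.00897, list median -0.32). Cd34 was lower in the list of 6 markers of basal, erythroid and marrow cells, at -0.38 ± 0.08 (adjusted p = 0.0142, list median 0.04). Its red signal was 207 times the background, against a list median of 1.63, and the cell type behind it was not tested. Cd34 no longer passed in 6 of the 22 settings, as did Mmp8 in 6 and Camp, Il7r and Acta2 in 2 each. The exact Wilcoxon test, by which 0 genes passed, is among the 22. Over these settings the difference ran from 0.33 to 1.26 in Il7r and 0.55 to 2.30 in Camp. It ran from -0.50 to -0.17 in Acta2, -0.54 to -0.24 in Dcn and -0.60 to -0.32 in Pdgfra. With the slide as a block, Aqp5 (type 1, adjusted p = 0.0266), Tek (endothelial, 0.0159) and Myh11 (smooth muscle, 0.0339) were lower as well, and the T cell genes Cd3g (0.00539) and Cd3d (0.0327) higher, where 7.51% of all genes were higher and 6.27% lower. Every marker measured was well above background in red on at least 1 array, and Ear2 and Ly6g of the lists were not found on the arrays.

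**Figure D5:**
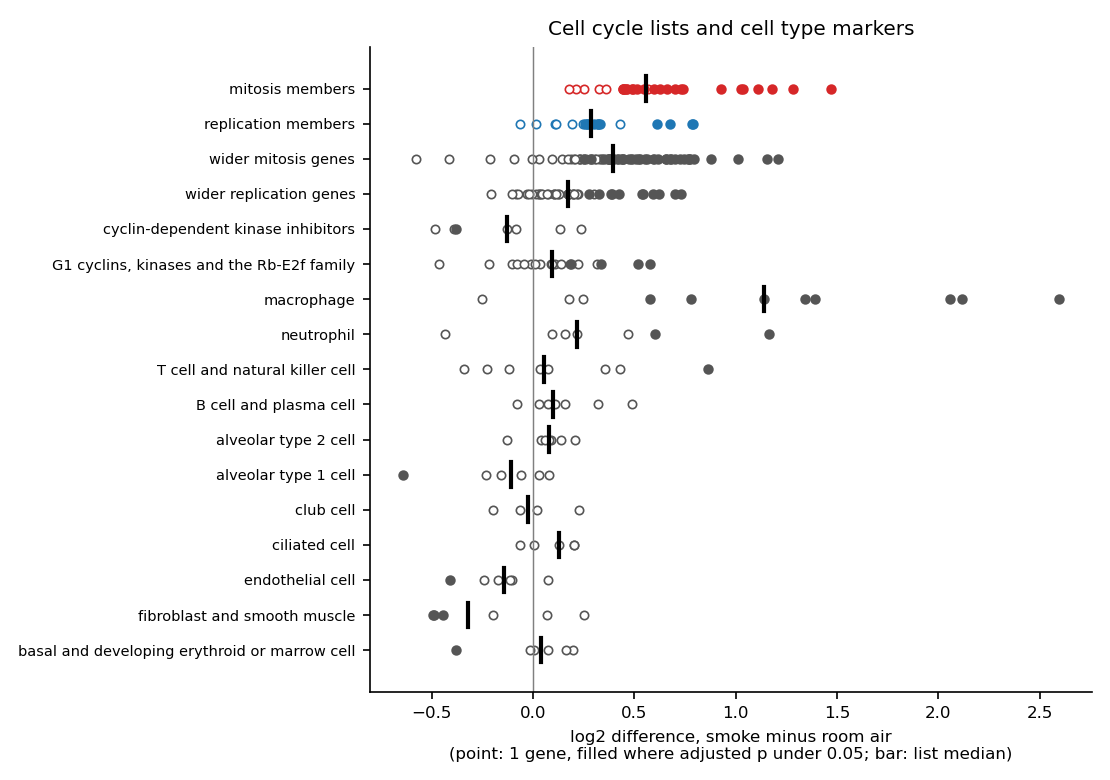
Each point is a gene of a list at its log2 difference, smoke minus room air, filled where the adjusted p was under 0.05, and bars are list medians. The medians of the mitosis (0.56) and replication (0.29) genes and of the macrophage markers (1.14) lie to the right of 0, and that of the fibroblast and smooth muscle markers (-0.32) lies to the left.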

How the data were processed

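The mean spot and median local background intensities were deposited as scanned, by Agilent Feature Extraction (9.1 per the submitters' notes, a later version per the file headers). The log10 ratios deposited in the same files were made by that software from background-subtracted and dye-normalised signals, per the file headers, and served as an alternative only. The authors' table of log2 values is the mean log2 of both channels: with a tolerance of 0.0001, all 286449 values equal the same-numbered array of the other group, and 286 also equal their own, so it was not used. Intensities were corrected by normexp with an offset of 50, turned into log2 ratios of red over green and adjusted by loess within arrays, with control spots left out, spots with an outlier flag missing and repeated spots averaged (R 4.3.3, limma 3.58.1). All p-values are limma's, two-sided, and adjusted by Benjamini and Hochberg over all probes tested, with a threshold of 0.05, apart from a Wilcoxon test, which the methods name and which was run as an alternative, exact and two-sided. Of 41174 probes, 22951 were named by accession, 6659 by current symbol, 3109 by synonym and 8455 by the file's own name, and each gene is represented by the probe that was brightest in red on average. Over probes, arrays of the same replicate number correlated across groups, after the group means were removed, at r = 0.157, 0.460, 0.461, 0.550 and 0.415, and other pairs at a median of -0.124 and at most 0.205, so the number was also fitted as a block. All 46 members were named, those past the threshold with their array values, and up to 4 genes of each other list with the largest difference among those past it. Block calls and the label check name further ones, chosen after their values were seen. The members and lists were chosen with earlier results of these data known. Printed probes and promoters were chosen after the values were seen.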

Additional observations from a re-analysis of the deposited data

Results flagged for a closer look

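In 10 of 154 gene and group pairs, 1 array stood far from the others of its group, where chance gives about 1 in 20, and 2 of these were among the 92 pairs of the members. Ccna2 in smoke replicate 4 had a log2 ratio of -2.86, the next highest of the 4 arrays with a value being -3.18. Prc1 in room air replicate 1 had -3.97, the next lowest being -3.75. Among the other genes, Gins1 in room air replicate 3 had -3.50 (next -3.24) and Gmnn in room air replicate 1 had -2.12 (next -1.88), each the lowest of its group. Marco in smoke replicate 4 was lowest at 4.97 (next 5.92). Mmp8 in room air replicate 1 was highest at 2.31 (next 1.14). Pdgfra in smoke replicate 5 was highest at 0.84 (next 0.74), and Cd34 in smoke replicate 2 at 0.72 (next 0.52). Cyp1a1 in smoke replicate 3 was highest at 7.05 (next 6.37), and Tiparp in room air replicate 2 at -0.504 (next -0.836). The causes were not tested.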

How the results depend on the processing

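The count of 33 higher genes (11 replication, 22 mitosis) and the medians (0.29 and 0.56) depended on several settings, and the cause was not tested. With median centring, 13 members were higher (3 and 10), 19 of the wider cell cycle genes passed, the replication median was 0.18 and 1434 probes past the threshold were counted in all, against 2906. With scaling after loess these were 16 (3 and 13) and 30, with medians of 0.19 and 0.39. Offset 0 gave 5 replication genes, a mitosis median of 0.75 and 1660 probes, with 940 of all genes higher, against 1371. The scanner's own ratio gave a mitosis median of 0.75. The red channel alone gave 4 replication genes, a mitosis median of 0.73 and 1759 probes at its 75th percentile, and 6 replication genes after quantile scaling. Of all genes, 875 and 1084 were higher there. The block gave 79 wider genes, against 48, and 5019 probes. Here and in the other settings, wider genes (over all lists of further cell cycle and G1 genes) and probes are counted in either direction. The exact Wilcoxon test passed 0 members, 0 replication genes, 0 mitosis genes, 0 wider genes and 0 probes. The mean over all probes of a gene left 32 members, with medians of 0.24 and 0.51, and the differences of 8 of the 33 shrank by over 1.5 times. A threshold of 0.01 left 21 members, 4 replication genes, 29 wider genes and 1428 probes, with 812 of all genes higher. Without each array in turn, 28 to 33 members and 1061 to 1723 of all genes were higher. The medians were then 0.26 to 0.31 and 0.49 to 0.61. The mitosis median was above the replication median under every setting run.

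Among the members, the sign changed in 3 genes, none past the threshold under any setting. Mcm4 was at 0.00192 in the red channel after quantile scaling. Pola1 was at -0.00112 after median centring and between -0.0621 (room air replicate 2 left out) and 0.238 (smoke replicate 2 left out). E2f1 was at -0.0968 after median centring, -0.0465 after scaling, -0.0168 by the scanner's ratio, -0.0463 and -0.000813 in the red channel alone (75th percentile and quantile), and -0.0836 to 0.109 with single arrays left out. With single arrays left out, Tiparp, of the check of the labels, was between -0.0912 (without smoke replicate 2) and 0.0172 (without room air replicate 2). Over all 22 settings it was between -0.162 and 0.0172. Over all members and settings, 854 results kept direction and side of the threshold, 129 no longer passed, 16 newly passed and 12 changed sign. The 129 include those under the exact Wilcoxon test, by which 0 genes passed. Signal limits Ccne2, Aurkb and Ttk, which were not well above background on all arrays. It may limit other members with dim spots as well, such as Kif11, and Cdc45 at 1.55 times the background. The 5 arrays a group limit all estimates.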
